A study of Mus musculus with 2 samples.

Results

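F3-type stromal cells are fibroblast-like cells of subcutaneous fat that carry transcripts of F3, Gdf10, Fmo2, Meox2 and Clec11a. They were selected on these measured values: of 6905 barcodes, 6670 passed the cell filters, and the 400 with the highest score (top 6%) were taken as F3-type cells. The score is the mean over the 5 genes of ln(1 + counts per 10000 counts of the cell). It is a range of a score and not a sharp type, as the values near the lowest F3-type cell show below. Every level of the 5 selection genes in F3-type cells is therefore a description of the choice. The word regulatory in the usual name of these cells refers to an effect on neighbouring cells, which transcript counts do not measure.

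The cells came from wild-type (WT) mouse pups aged 12 days that were cross-fostered. The foster dams' milk fat differed in the n-6/n-3 ratio of its polyunsaturated fatty acids (PUFA), high in 1 condition and low in the other. For each of these 2 conditions, 1 sample of 3000 adipocyte precursor cells was flow-sorted from digested subcutaneous adipose tissue and captured with 10x Genomics droplet chemistry (3prime V2) that counts the 3′ ends of transcripts by unique molecular identifiers (UMIs). The labels describe the cells both as fresh and as cryopreserved, thawed and cleared of permeable cells with a dye. The sex of the pups, the number pooled and the surface markers of the sort are not given in the sources used here. The matrix joins both libraries, and no label ties library 1 or 2 to a milk condition. The libraries are therefore given side by side, no milk condition is attached, and with 1 sample per condition no p-value was computed. All intervals are exact 95% intervals for counting error only. The 400 F3-type cells held 4314054 UMIs in all, with a median of 11001.5 UMIs and 2742 genes per cell, and the 6270 other cells 77657989, with medians of 12513 and 2940. The median mitochondrial share of UMIs was 1.70% in F3-type and 1.75% in other cells. The deposited barcodes numbered 3321 in library 1 and 3584 in library 2, above the 3000 cells loaded. No doublet caller was run, and with cells above the 95th percentile of UMIs left out the counts of higher and lower genes given below stayed within 1.5-fold. The genes themselves changed more. Against other cells 129 of 133 higher and 87 of 93 lower genes were still called. Against committed cells, defined below, 111 of 126 higher and 80 of 129 lower genes were.

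F3 encodes tissue factor (CD142), the membrane receptor that starts blood coagulation by binding factor VII. In mouse subcutaneous fat, stromal cells with F3 on their surface were described as cells that form few adipocytes and restrain adipocyte formation by other precursors, although other laboratories found such cells able to form adipocytes. Current maps of adipose stroma place them beside Dpp4-marked interstitial progenitors and committed preadipocytes, which are marked by Icam1, Lpl and basement membrane collagens. Gdf10 encodes a secreted relative of the bone morphogenetic proteins (BMPs), Fmo2 a flavin monooxygenase, Meox2 a homeobox transcription factor of mesoderm, and Clec11a a secreted growth factor first known for its support of blood progenitors.

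The promoters of 3 of the selection genes are shown because they lie upstream of the transcripts that define the cells. Each runs 250 bases before to 50 bases after the transcription start in RefSeq (GRCm38.p6), 5′ to 3′ on the gene's strand. The F3 window lies at chr3:121723287-121723586, Gdf10 at chr14:33923337-33923636 and Meox2 at chr12:37108290-37108589, all on the plus strand. Capitals mark 4 short motifs found on either strand: the GC box GGGCGG, the TATA box TATAAA, the AP-1 site TGACTCA and the nuclear receptor half-site AGGTCA.
F3 promoter: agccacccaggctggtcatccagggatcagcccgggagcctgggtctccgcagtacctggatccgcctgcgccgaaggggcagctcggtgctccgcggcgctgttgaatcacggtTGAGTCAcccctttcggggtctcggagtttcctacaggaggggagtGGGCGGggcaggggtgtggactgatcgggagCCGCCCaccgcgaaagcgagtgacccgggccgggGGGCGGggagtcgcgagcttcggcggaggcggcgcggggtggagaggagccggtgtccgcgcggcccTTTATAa
Gdf10 promoter: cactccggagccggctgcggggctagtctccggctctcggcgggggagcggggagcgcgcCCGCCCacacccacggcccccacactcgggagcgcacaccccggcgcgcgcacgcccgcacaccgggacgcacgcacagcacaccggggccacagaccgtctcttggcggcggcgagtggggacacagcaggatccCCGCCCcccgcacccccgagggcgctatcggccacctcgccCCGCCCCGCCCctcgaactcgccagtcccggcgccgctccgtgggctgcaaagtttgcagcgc
Meox2 promoter: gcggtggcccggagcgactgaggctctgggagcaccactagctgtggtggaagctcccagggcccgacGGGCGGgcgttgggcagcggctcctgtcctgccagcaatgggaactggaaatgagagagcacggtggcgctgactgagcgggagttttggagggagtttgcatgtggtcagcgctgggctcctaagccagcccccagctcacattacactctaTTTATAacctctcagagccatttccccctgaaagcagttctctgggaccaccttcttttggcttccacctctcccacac
The F3 window held 3 GC boxes, 1 AP-1 site and 1 TATA box, with the AP-1 and TATA letters on the opposite strand and the TATA box at the downstream end. The Gdf10 window held 4 GC boxes, of which the last 2 share a base, and none of the other motifs. The Meox2 window held 1 GC box and 1 TATA box on the opposite strand. Of 32851 mouse promoters of this length in the same table, 35.7% held a GC box, 13.6% a TATA box, 5.20% the AP-1 site and 16.3% the half-site. A match is a match of letters only, and it names no bound factor. Of the 5 selection genes and 12 leading genes named below, 14 of 17 had an entry. By the GRCm38 annotation the F3 gene spans chr3:121723537-121735048, and the gene that led the comparison below, Mgp, spans chr6:136872435-136875823 on the minus strand.

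F3-type cells made up 5.62% of library 1 (181 of 3220 cells, interval 4.85 to 6.47) and 6.35% of library 2 (219 of 3450, 5.56 to 7.21), intervals that overlapped. The score had no gap at the chosen limit. The lowest F3-type cell and the highest other cell both scored 0.458, the median was 0.564 in F3-type cells and 0.112 in other cells, and the highest cell scored 1.55. Within 0.05 of the limit there were 103 F3-type cells above it and 140 other cells below it. A score of 0, with no UMI of any selection gene, was found in 2370 other cells (37.8%). Of the 17 barcode sequences that occur in both libraries, none gave an F3-type cell in both, and 2 F3-type cells carried such a barcode.

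**Figure D1:**
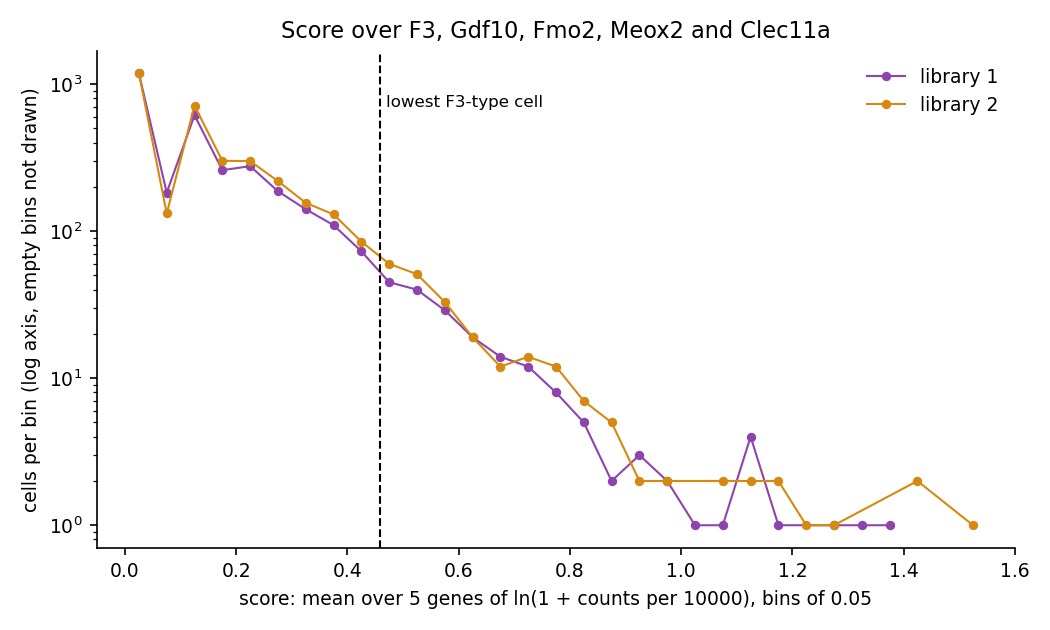
Number of filtered cells per bin of the score (x axis, natural log units, bins of 0.05) in library 1 and library 2, on a log axis, with the lowest F3-type cell marked at 0.458. The number of cells falls off across the limit in both libraries, with 103 F3-type cells within 0.05 above it and 140 other cells within 0.05 below it.

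Counts summed over groups of cells are given as CPM, the counts per 1000000 counts of the summed total. F3 stood at 213 CPM in F3-type cells and 37.3 CPM in other cells, and Gdf10 at 223 and 31.5 CPM. Clec11a was at 104 CPM in F3-type and 15.6 CPM in other cells, Meox2 at 71.2 and 9.59 CPM, and Fmo2 at 53.3 and 5.36 CPM. These values restate the choice. F3-type cells differed in which of the genes they carried: 5 had a UMI of 1 gene, 127 of 2, 186 of 3, 68 of 4 and 14 of all 5. With 3 or more there were 268 F3-type cells (67.0%) and 208 other cells (3.32%). Over all filtered cells, 476 (7.14%) held 3 or more, where the product of the single-gene shares comes to 330 (4.95%).

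Each selection gene was also read in cells chosen by the other 4, so that it had no part in choosing them. Again the top 6% (400 cells) were taken, and 266 to 334 of them were F3-type cells by the full score. F3 then stood at 92.3 CPM in the chosen cells and 43.9 CPM in the remaining cells (2.10-fold), Gdf10 at 115 and 37.3 CPM (3.09-fold) and Fmo2 at 28.2 and 6.76 CPM (4.17-fold). Meox2 was at 42.4 CPM in the chosen cells and 11.2 CPM in the rest (3.79-fold), and Clec11a at 36.2 and 19.3 CPM (1.87-fold). Each of the 5 was higher in the chosen cells in both libraries, with intervals above no change, and the smallest fold in 1 library was 1.66, for Clec11a in library 1. The transcripts thus occurred together, but loosely. With each cell thinned to 7388 UMIs, pairs of the 5 genes were found in the same cell 1.10 to 2.01 times as often as the product of their shares, and the correlation of thinned counts across cells was weak (Pearson's r 0.027 to 0.134, cells sharing 2 libraries).

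Of the 4750 genes other than the selection genes with at least 20 CPM in F3-type or other cells, 133 (2.8%) were at least 1.5-fold higher in F3-type cells in each library, and 93 (1.96%) at least 1.5-fold lower. Only genes past this rule are called higher or lower in what follows, and no test stands behind the word. A gene that reached 20 CPM in only 1 of the groups compared could be called only in the direction of that group. The median log2 fold over all 4750 genes was 0.01. F3-type cells were shallower than other cells, and with other cells weighted to their depth 110 genes were higher and 73 lower. The comparison describes cells chosen on part of the same transcriptome, so the number of genes called is not evidence that the cells are a type.

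Mgp, the matrix Gla protein that inhibits calcification, headed the list. It was at 235 and 228 CPM in F3-type cells of libraries 1 and 2, against 31.5 and 36.7 CPM in other cells, a log2 fold of 2.76 (interval 2.66 to 2.87). Ifitm1, an interferon-inducible membrane protein, was at 83.6 and 82.4 CPM in F3-type cells and 13.02 and 14.88 CPM in other cells (2.57, 2.40 to 2.75). For both genes the libraries lay closer to each other than the groups did, and the groups did not overlap. Here and below, genes named for large folds in each library are likely to be separated in this way, so it adds little to the call. The share of all compared genes without overlap was not counted. Vtn, the adhesive plasma and matrix protein vitronectin, was at 71.6 and 63.6 CPM in F3-type and 13.1 and 13.7 CPM in other cells (2.33, 2.14 to 2.52). C2, the complement component that forms part of the classical C3 convertase, was at 146 and 140 CPM in F3-type and 30.7 and 32.0 CPM in other cells (2.19, 2.06 to 2.32). Tspan11, a tetraspanin, stood at 71.1 and 91.8 CPM in F3-type cells and 18.5 and 18.7 CPM in other cells (2.14, 1.96 to 2.30). Again no library of F3-type cells overlapped the other cells.

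Gas6, a vitamin K-dependent ligand of the TAM receptors, was at 85.5 and 87.3 CPM in F3-type and 22.5 and 22.1 CPM in other cells (log2 fold 1.96, 1.79 to 2.12). Igfbp4, a binding protein of insulin-like growth factors, was the most abundant of the leading genes, with 1487 and 1306 CPM in F3-type and 468 and 427 CPM in other cells (1.64, 1.60 to 1.68). These 2 genes also kept the groups apart in each library. The remaining leading genes were Mmp3 (stromelysin, log2 fold 1.503), Sult5a1 (a sulfotransferase, 1.45), Cygb (cytoglobin, 1.40), Ntrk2 (the receptor of brain-derived neurotrophic factor, 1.36) and Nrp1 (a co-receptor of semaphorins and VEGF, 1.32). All 12 genes were at least 1.5-fold higher in both libraries, as the rule requires.

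**Figure D2:**
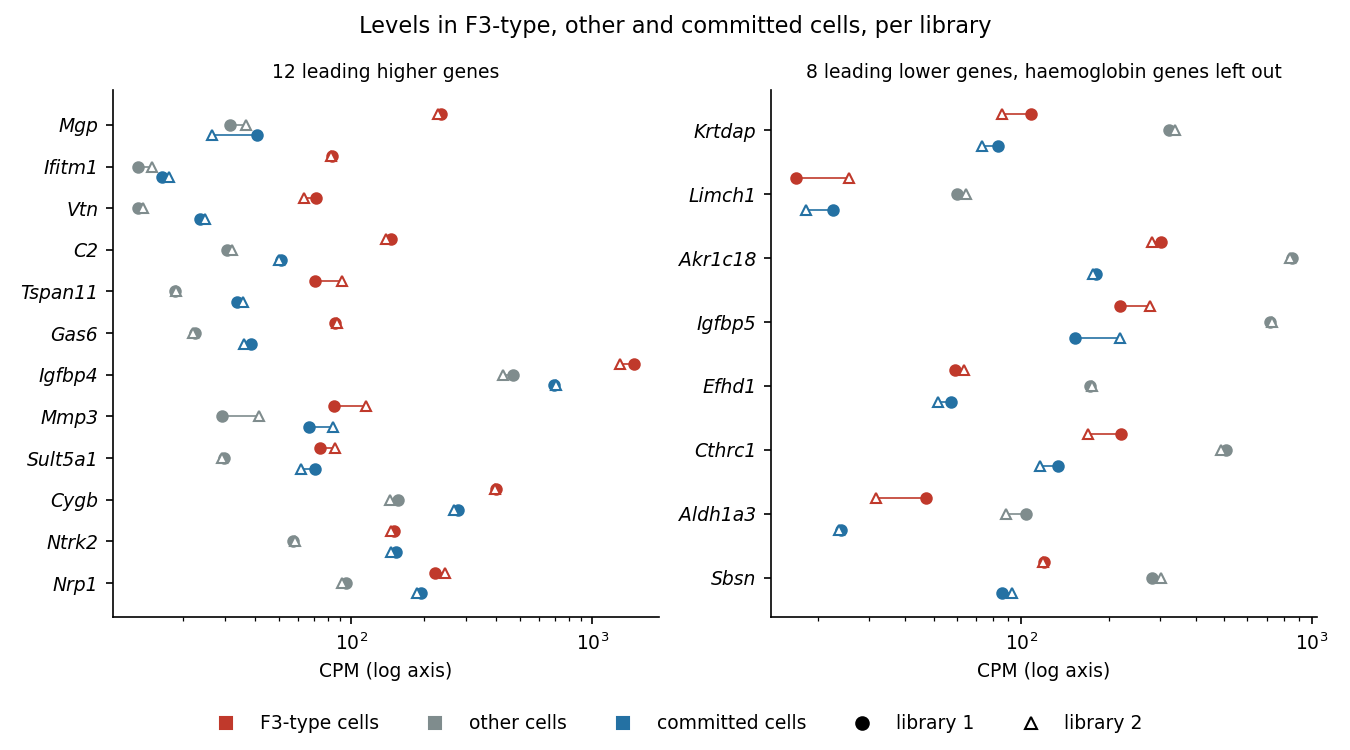
CPM (log axis) of the 12 genes that led the higher genes and of 8 that led the lower genes against other cells, in F3-type cells (red), other cells (grey) and committed cells (blue), with a point for each library. Mgp stood at 235 and 228 CPM in F3-type cells, right of all other points for that gene, while Krtdap at 108 and 86.0 CPM lay near the committed cells (83.1 and 73.6 CPM) and left of the other cells (324 and 337 CPM).

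Of 9 further genes reported for these cells, 5 had enough counts to be compared, and all 5 were higher, beside 2.8% of all 4750 genes. Besides Mgp these were Vit, the matrix protein vitrin, at 39.6 CPM in F3-type and 7.37 CPM in other cells (log2 fold 2.43), and Bgn, the proteoglycan biglycan, at 1570 and 741 CPM (1.08). Epha3, an ephrin receptor, was at 44.5 CPM in F3-type and 21.5 CPM in other cells (1.05), and Cpe, carboxypeptidase E, at 156 and 85.0 CPM (0.88). Abcg1, Fgf12, Rtp3 and Spink2 stayed under 20 CPM in both groups and were not compared. Vit reached 20 CPM only in F3-type cells, so it could be called only higher, and Mgp is the leading gene named above. Against committed cells Mgp, Vit and Epha3 were called higher, while Bgn (1570 CPM in F3-type and 1215 CPM in committed cells, 0.37) and Cpe (156 and 125 CPM, 0.33) were not. Abcg1, often used beside F3, was too low to read. The precursor markers Pdgfra, Pdgfrb, Cd34, Ly6a, Itgb1, Dcn and Lum summed to 12790 CPM in F3-type and 11380 CPM in other cells.

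At single-cell level the leading genes were spread unevenly. Among F3-type cells thinned to 7388 UMIs (336 cells, 64 shallower cells left out), Mgp had a UMI in 37.8%, C2 in 49.4%, Gas6 in 33.9%, Ifitm1 in 22.6%, Vtn in 17.9% and Tspan11 in 39.0%. In other cells (5667, with 603 left out) these shares were 12.2%, 17.4%, 11.1%, 7.45%, 7.41% and 11.6%. At least 3 of the 6 genes were found in 36.9% of F3-type cells (31.7 to 42.3), 4.46% of other cells and 8.30% of committed cells. At the Dpp4 end of the progenitor score, defined below, 0.164% of cells (2 of 1221) held 3 or more. The 6 genes were picked for large folds between F3-type and other cells in these same data. A larger share in F3-type cells therefore restates that pick and gives no separate support. Without thinning, Mgp had a UMI in 40.8% of F3-type and 17.9% of other cells. As a guide to free RNA, 1 of the 18 cells with macrophage markers (5.56%, 0.141 to 27.3) had a thinned UMI of F3, and the share was the same for Mgp and Vtn, at a median depth of 7938 UMIs against 11001.5 in F3-type cells. Other leading genes had larger shares there, from 11.1% for Ifitm1, Tspan11 and Sult5a1 to 44.4% for C2 and Cygb, 72.2% for Gas6, 77.8% for Nrp1 and 88.9% for Igfbp4. Mmp3 had a UMI in 30.4% of F3-type cells and 33.3% of those cells, and Nrp1 in 70.8% and 77.8%. The shares of F3-type cells with Mmp3, Nrp1 and Gas6 thus did not exceed those in cells with macrophage markers. At the Dpp4 end the thinned shares were lower than in F3-type cells, at 7.45% for Mmp3, 28.5% for Nrp1 and 4.996% for Gas6. Cells with macrophage markers also held Pdgfra in 61.1%, so whether they were free of stromal cells was not tested. Whether the transcripts in them were free RNA or their own was not tested either, so their shares set no level of free RNA. Macrophage markers were lower in F3-type than in other cells, as given at the end.

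The complement list was mixed. Of its 10 measured members, 5 were higher in F3-type cells, 1 was lower, and the median log2 fold was 0.69 beside 0.01 over all genes. Vtn and C2 are given above. C1s1 and C1ra, the serine proteases of the first component, were at 350 and 328 CPM in F3-type cells and 185 and 177 CPM in other cells (0.92 and 0.89), and both have near-identical copies that may share reads. Serping1, the inhibitor of these proteases, was at 1427 CPM in F3-type and 863 CPM in other cells (0.73). Cd55, the surface protein that breaks up C3 convertases, was lower at 89.2 CPM in F3-type and 185 CPM in other cells (-1.05). C3 itself was at 26.7 CPM in F3-type and 23.5 CPM in other cells and was not called. Against committed cells C1s1, C1ra and Serping1 were not called either (-0.06, -0.05 and 0.54), while C2 and Vtn were.

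Apart from Gas6, the haemostasis genes around tissue factor were not called. Of 9 measured genes, Gas6 was the 1 that was higher, none was lower, and the median log2 fold was 0.36. Tfpi, the inhibitor of the tissue factor pathway, was at 39.9 CPM in F3-type and 40.4 CPM in other cells (-0.02, -0.25 to 0.20). Thbd, the thrombin receptor thrombomodulin, was at 170 CPM in F3-type and 114 CPM in other cells (0.57), short of the 1.5-fold rule in library 1. Pros1, the anticoagulant protein S, stood at 95.7 CPM in F3-type and 71.0 CPM in other cells. The proteases' receptors Procr and Plaur and the activator Plat had log2 folds of -0.29, -0.13 and -0.15.

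Matrix genes differed by component, and their list medians were near that of all genes. Of 18 genes of elastic fibres and microfibrils, 4 were higher and 2 lower. Ltbp4, a latent TGF-beta binder of elastic fibres, was at 282 CPM in F3-type and 116 CPM in other cells (1.28), Fbln1 (fibulin 1) at 267 and 112 CPM (1.25), and Mfap4 at 751 and 352 CPM (1.09). Eln, elastin, was at 1998 CPM in F3-type and 1110 CPM in other cells (0.85), with 2640 and 1400 CPM in libraries 1 and 2 of F3-type cells against 1344 and 879 CPM in other cells. Library 2 of the F3-type cells (1400 CPM) thus lay only a little above library 1 of the other cells (1344 CPM) for Eln. Efemp1 was lower at 270 CPM in F3-type and 529 CPM in other cells (-0.97), and Fbn1, the main microfibril protein, at 1332 and 2089 CPM (-0.65). None of the 13 measured fibrillar and other collagens was called, and Col1a1 stood at 19580 CPM in F3-type and 19700 CPM in other cells.

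Ligands and modulators of growth factor pathways showed the following. Of the insulin-like growth factor genes, Igfbp4, Igfbp7 and Igf1 were higher and Igfbp5 lower among 9. Igfbp7 was at 2031 CPM in F3-type and 938 CPM in other cells (1.11), Igf1 at 317 and 171 CPM (0.89), and Igfbp5 at 249 and 723 CPM (-1.54). Of 6 measured TGF-beta and BMP ligands, Bmp4 was lower at 8.11 CPM in F3-type and 20.9 CPM in other cells (-1.37), Tgfb2 was lower at 11.8 and 29.2 CPM (-1.31), and the median was -0.58. Of 10 latent binders and antagonists of these ligands, Ltbp4 and the BMP antagonist Chrdl1 (173 CPM in F3-type and 92.6 CPM in other cells, 0.90) were higher and none was lower. Fzd4, a Wnt receptor, was at 62.1 CPM in F3-type and 28.9 CPM in other cells (1.11), and Sfrp4, a secreted Wnt antagonist, at 726 and 433 CPM (0.75), 2 of 11 in that list.

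Of 16 measured transcription factors of mesenchymal patterning, 4 were higher and none lower: Nr2f2 (36.6 CPM in F3-type and 11.01 CPM in other cells, 1.73), Osr1 (110 and 61.1 CPM, 0.84), Tbx18 (32.0 and 18.4 CPM, 0.80) and Tshz2 (181 and 113 CPM, 0.68). Over all 4750 genes 2.8% were higher. Nr2f2 and Tbx18 reached 20 CPM only in F3-type cells, so they could be called only higher. None of the 7 adipogenic transcription factors above 20 CPM was called. Pparg, the master regulator of fat cell differentiation, lay under that level, at 12.1 CPM in F3-type and 11.3 CPM in other cells (0.10, -0.34 to 0.50). Dlk1, a secreted restrainer of adipogenesis, stood at 572 CPM in F3-type and 567 CPM in other cells (0.01, -0.05 to 0.07). Cxcl12, the chemokine that retains blood progenitors in their niche, was at 660 CPM in F3-type and 380 CPM in other cells (0.80). Against committed cells, at 642 CPM, it was not called (0.04), nor was Igf1 at 250 CPM (0.34). The growth factor Fgf7 was higher at 40.8 and 22.5 CPM (0.86), so that 2 of 7 genes of blood cell support were called. Fmo1, a relative of Fmo2, was higher at 56.8 CPM in F3-type and 29.9 CPM in other cells (0.92), with Cyp1b1 and Mgst3 the other 2 of 14 xenobiotic enzymes. Aldh1a3, a retinaldehyde dehydrogenase, was lower at 39.2 CPM in F3-type and 96.5 CPM in other cells (-1.30).

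The prostaglandin list had the lowest median against other cells, -0.77 over 7 genes, of which 4 were lower and none higher. Against committed cells its median was 0.11 over 6 genes, with Pla2g4a higher and none lower, and Ptgs2 had 0.58, not called. The values that follow are against other cells. Ptgs1, cyclooxygenase 1, was at 8.35 CPM in F3-type and 29.2 CPM in other cells (-1.81), and Ptgs2, cyclooxygenase 2, at 41.0 and 91.7 CPM (-1.16). Hpgd, which inactivates prostaglandins, was at 23.2 and 55.2 CPM (-1.25), and Ptgis, prostacyclin synthase, at 125 and 214 CPM (-0.77). The other lower genes were led, after the haemoglobin genes treated below, by Krtdap (96.7 CPM in F3-type and 331 CPM in other cells, -1.77), Limch1 (-1.55), Akr1c18 (a hydroxysteroid dehydrogenase, -1.54), Igfbp5, Efhd1 (-1.50) and Cthrc1 (a collagen triple helix protein, -1.35).

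Genes of oxidative metabolism, which the study's title names, passed the rule in neither direction. Of 25 genes of oxidative phosphorylation, 16 of fatty acid oxidation and 10 of glycolysis, 0 were higher and 0 lower, and the medians were -0.02, -0.03 and -0.09. Over all 4750 genes 2.8% were higher and 1.96% lower, so in lists of this size a count of 0 says little. Cpt1a, which admits fatty acids to the mitochondrion, was at 21.8 CPM in F3-type and 22.5 CPM in other cells (-0.05, -0.36 to 0.25). Of the dissociation stress genes, which respond to tissue digestion, 20 of 21 had a log2 fold above 0 with a median of 0.34. Jun (777 CPM in F3-type and 465 CPM in other cells) and the near-identical heat shock genes Hspa1a and Hspa1b were called higher. Against committed cells 11 of 21 stood above 0, with a median of 0.065 beside 0.066 over all genes, and Nr4a1 and Hspa1a were called higher. The part of this response in the other differences was not tested.

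Levels followed the score by degrees. Igfbp4 was higher at each of 8 successive ranks, with 372 CPM in the lowest 50% of cells, 741 CPM in the 8 to 12% below the top, 1002 CPM in the 6 to 8% just under the limit, and 1056, 1338 and 1828 CPM in the 3 ranks of F3-type cells, low to high. Krtdap was lower at each rank, with 391 CPM in the lowest 50%, 148 CPM just under the limit and 73.6 CPM in the top 2%. Mgp was irregular near the limit, with 186 CPM in the 6 to 8% rank and 88.6 CPM in the 4 to 6% rank inside it. In the 100 F3-type cells just inside the limit (scores 0.458 to 0.506), Igfbp4 was at 1035 CPM, C2 at 81.6 CPM and Mgp at 87.0 CPM. In the 100 other cells just outside (0.421 to 0.458), Igfbp4 was at 1085 CPM, C2 at 112 CPM and Mgp at 239 CPM. Igfbp4 thus differed little across the limit, and the cells outside it had more Mgp. The intervals of C2 overlapped (65.8 to 100.1 inside, 93.1 to 132.8 outside). Some genes went the other way, among them Cygb at 319.5 CPM inside and 232.9 CPM outside, and Cxcl12 at 708 and 529 CPM.

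**Figure D3:**
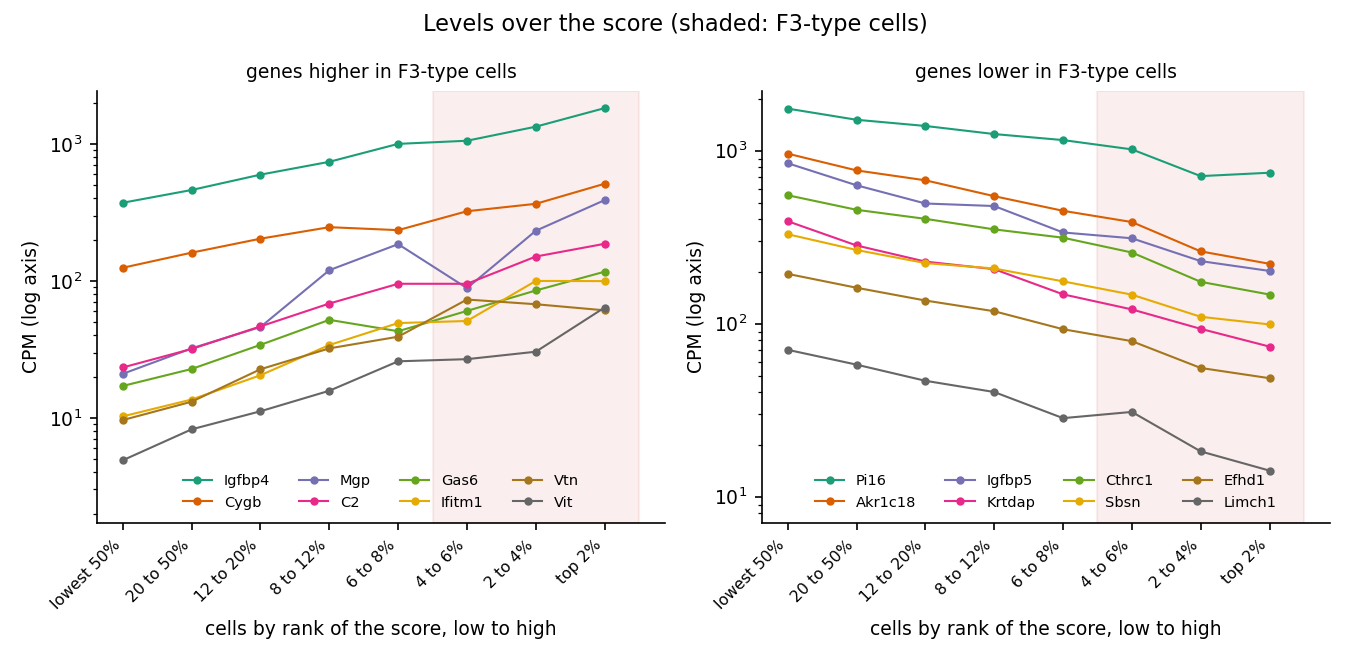
CPM (log axis) of 8 genes higher and 8 genes lower in F3-type cells (Pi16 is 1 of the Dpp4 score genes) over 8 ranks of the score, low to high, with the F3-type ranks shaded. Igfbp4 stood at 372 CPM in the lowest 50% and 1828 CPM in the top 2%, and Krtdap at 391 and 73.6 CPM.

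F3-type cells were placed on a score of differentiation that shares no gene with their choice: the mean of Dpp4, Wnt2, Bmp7, Anxa3 and Pi16 minus the mean of Col15a1, Col4a1, Col4a2, Lpl and Icam1. They lay between the ends and nearer the committed one. Their median was -0.60, against 0.45 in other cells, and -1.25 in the committed cells defined as the lowest 20% without F3-type cells (1207 cells). Of the F3-type cells, 127 (31.8%, 27.2 to 36.6) fell in the lowest 20% of all filtered cells and 9 (2.25%, 1.03 to 4.23) in the highest 20%, the Dpp4 end. In other cells these shares were 19.3% and 21.1%. The committed share was 26.0% in library 1 (19.7 to 33.0) and 36.5% in library 2 (30.1 to 43.3) of the F3-type cells, intervals that overlapped.

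**Figure D4:**
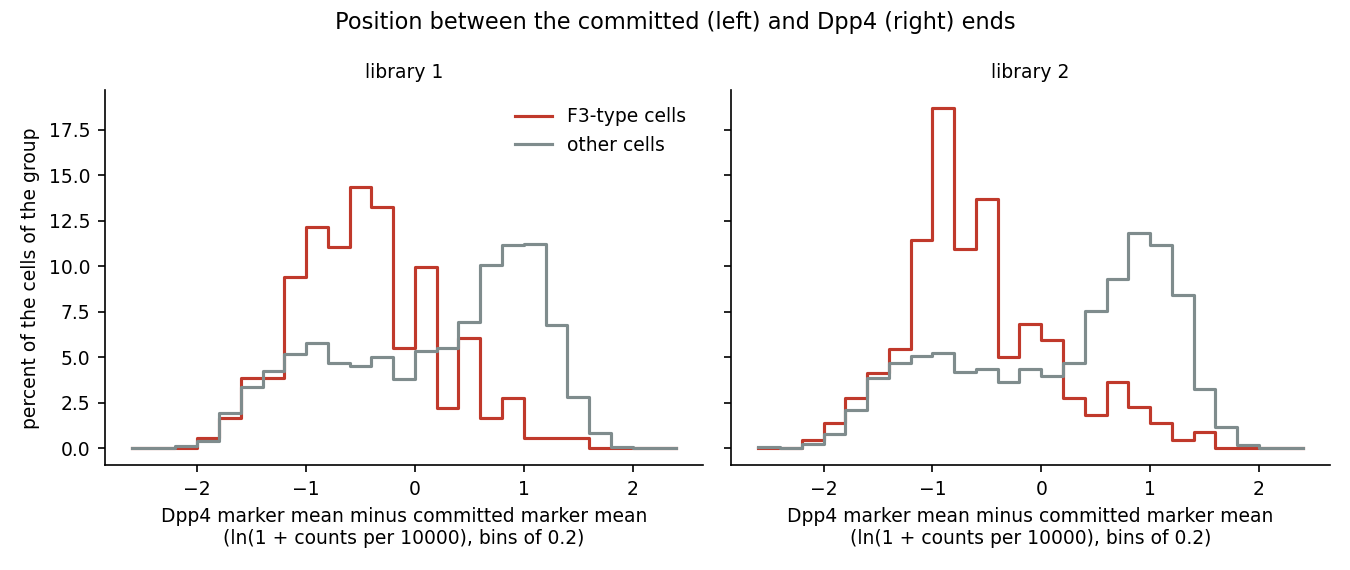
Percent of F3-type cells and of other cells (y axis) by the score of differentiation (x axis, natural log units, bins of 0.2), for library 1 and library 2, with the committed end at the left and the Dpp4 end at the right. F3-type cells centre on a median of -0.60 over both libraries, and other cells on 0.45 with their fullest bins between 0.8 and 1.2.

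The genes of that score had intermediate levels in F3-type cells. Pi16 was at 828 CPM in F3-type, 1610 CPM in other and 548 CPM in committed cells, and Dpp4 at 91.8, 176 and 40.2 CPM in the same groups. Col15a1 stood at 190 CPM in F3-type, 122 CPM in other and 455 CPM in committed cells, and Col4a1 at 354, 252 and 798 CPM. With other cells weighted to the same distribution of the score, 56 genes were higher and 38 lower, and of the genes called without weighting 49 of 133 and 10 of 93 were among them. Mgp had a log2 fold of 2.07 under this weighting, Ifitm1 2.003, Vit 1.72, Vtn 1.67, C2 1.53, Tspan11 1.48, Gas6 1.22 and Igfbp4 1.10. Cygb, Sult5a1, Nrp1, Mmp3 and Ntrk2 had 0.87, 0.79, 0.77, 0.77 and 0.71. Krtdap had -0.60, Igfbp5 -0.47 and Akr1c18 -0.43, and the 4 prostaglandin genes lay between -0.68 for Ptgs1 and -0.40 for Ptgs2.

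Against committed cells, 126 of 4737 genes (2.66%) were higher in F3-type cells and 129 (2.72%) lower, with a median over all genes of 0.07. The comparison uses the same F3-type cells as the one above, and the committed cells are a part of the other cells. Here the selection genes and the 10 score genes were left out. Mgp again led, at 235 and 228 CPM in F3-type cells of libraries 1 and 2, against 40.7 and 26.6 CPM in committed cells (log2 fold 2.79, 2.63 to 2.96). Il33, an alarmin cytokine held in stromal nuclei, was at 30.6 CPM in F3-type and 5.72 CPM in committed cells (2.42), and Ifitm1 at 83.6 and 82.4 CPM in libraries 1 and 2 of F3-type and 16.4 and 17.5 CPM in committed cells (2.29). Vit stood at 39.6 and 9.43 CPM (2.07), C2 at 143 and 50.6 CPM (1.498), Vtn at 67.5 and 24.3 CPM (1.47) and Gas6 at 86.5 and 37.1 CPM (1.22). None of these 7 genes had overlapping groups in the 2 libraries, which adds little for genes already called in each library.

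Further genes above the committed level came from several lists. Smpd3, a neutral sphingomyelinase, was at 50.8 CPM in F3-type and 14.9 CPM in committed cells (1.77), and Eln at 1998 and 728 CPM (1.46). Of 10 Wnt genes 5 were higher and none lower, with a median of 0.75. They were Dkk3 (31.5 CPM in F3-type and 9.87 CPM in committed cells, 1.68), the secreted antagonists Sfrp4 (726 and 237 CPM, 1.61) and Sfrp2 (732 and 303 CPM, 1.27), and the receptors Fzd2 (0.97) and Fzd1 (0.91). Osr1 (110 CPM in F3-type and 35.3 CPM in committed cells, 1.63), Nr2f2 (1.27), Tbx18 (1.04) and Shox2 (0.90) were the 4 higher of 16 patterning factors. Kcnj8, a pore subunit of KATP channels, was at 64.0 CPM in F3-type and 24.0 CPM in committed cells (1.42). Thbd was called higher here, at 170 and 86.0 CPM (0.98), with Gas6 the second of 10 haemostasis genes. At the Dpp4 end Smpd3 (95.2 CPM), Dkk3 (45.1 CPM), Sfrp2 (890 CPM) and Kcnj8 (86.2 CPM) stood above F3-type cells, so their rise over committed cells is not particular to F3-type cells. Below F3-type cells there were Eln (907 CPM), Sfrp4 (278.5 CPM), Osr1 (77 CPM), Nr2f2, Tbx18, Shox2, Fzd2, Thbd and Gas6. Against other cells Kcnj8 was not called (0.10). Of the 12 genes that led against other cells, Mmp3, Sult5a1, Cygb, Ntrk2 and Nrp1 were not called against committed cells, with log2 folds of 0.41, 0.27, 0.55, -0.01 and 0.29.

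Of 11 genes of lipid uptake and storage, other than Lpl, 6 were lower in F3-type than in committed cells and 1, Vldlr, was higher, with a median of -0.74. Fabp4, the fatty acid binding protein of fat cells, was at 460 and 267 CPM in F3-type cells of libraries 1 and 2, against 1690 and 1715 CPM in committed cells (-2.24, -2.32 to -2.17). Cd36, a fatty acid transporter, was at 83.1 and 58.2 CPM in F3-type and 301 and 264 CPM in committed cells (-2.003). The groups did not overlap for either gene, but endothelial cells express both, and 27 committed cells and 1 F3-type cell held at least 4 endothelial markers. In a setting added after these values were seen, with such cells and those of other lineages left out, Fabp4 was at 318 CPM in F3-type and 751 CPM in committed cells (-1.24) and Cd36 at 65.5 and 170 CPM (-1.38), both still called. Of 13 sterol genes 7 were lower and none higher, with a median of -0.81. They included Idi1 (34.3 CPM in F3-type and 86.5 CPM in committed cells, -1.33), Hmgcs1 (84.1 and 181 CPM, -1.11) and Sqle (21.1 and 45.1 CPM, -1.10) of the synthesis route. Apoe, a lipid carrier on both lists, was at 586 CPM in F3-type and 1235 CPM in committed cells (-1.07).

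Several regulators of differentiation and inflammatory genes were lower than in committed cells, though most on their lists were not called. Pparg was at 12.0 and 12.1 CPM in F3-type cells of libraries 1 and 2, against 24.4 and 25.3 CPM in committed cells (-1.04, -1.50 to -0.62). Dlk1 was at 572 CPM in F3-type and 1477 CPM in committed cells (-1.37), Stat5a, a mediator of growth hormone signals, at 17.4 and 30.8 CPM (-0.83), and Sox9 at 73.7 and 132 CPM (-0.84). Of 7 adipogenic transcription factors Pparg and Stat5a were lower and none higher, and of 16 restrainers of adipogenesis Dlk1 and Sox9 were lower and Nr2f2 was higher. Pparg and Stat5a reached 20 CPM only in committed cells and could be called only lower. Nr2f2 reached it only in F3-type cells and could be called only higher. Of 18 chemokine and cytokine genes, 5 were lower: Cxcl10 (183 and 301 CPM, -0.72), Ccl19 (14.1 CPM in F3-type and 52.6 CPM in committed cells, -1.89), the receptors Il4ra (-0.76) and Il1r1 (-0.76), and Tnfaip6, an inhibitor of inflammation (3008 and 4991 CPM, -0.73). Il33 was the 1 that was higher. Spon1 (15.3 and 59.3 CPM, -1.95) and Iigp1, an interferon-induced GTPase (20.2 and 69.4 CPM, -1.78), were further leading genes.

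F3-type cells were also divided by the score of differentiation. The 127 at the committed end of the score, set against the other 273, had 65 genes higher (1.34% of 4850) and 108 lower (2.23%) by the same rule, with median depths of 10830 and 11090 UMIs. Genes that follow the score differ in any cells split on it, and the same split of other cells is not given here. The counts therefore do not measure how varied F3-type cells are. Steap4, a metalloreductase of fat cells, was at 235 CPM in committed-end and 104 CPM in the other F3-type cells, and Cd36 at 106 and 54.5 CPM. Smpd3 was at 13.8 CPM in committed-end and 66.8 CPM in the other F3-type cells, Sfrp2 at 355 and 895 CPM, and Eln at 1109 and 2384 CPM. The genes that led the comparison with other cells differed less here: Igfbp4 stood at 1375 CPM in committed-end and 1401 CPM in the other F3-type cells, Ifitm1 at 85.0 and 82.1 CPM, Gas6 at 85.0 and 87.1 CPM, and Mgp at 177 and 255 CPM.

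A second division followed Clec11a, and was looked for after the values without each selection gene had been seen. With Clec11a left out of the score, the log2 fold of Vtn against other cells was 0.53 and no longer reached 1.5-fold, and against committed cells it was -0.20. Mgp then had 1.84, Ifitm1 1.28 and C2 1.40 against other cells, still above 1.5-fold. Without any 1 of the other 4 genes, Vtn lay between 1.94 and 2.83, Mgp between 2.91 and 3.24, and Ifitm1 between 2.31 and 3.002. Gas6, Cygb, Ntrk2 and Nrp1 depended less on Clec11a, at 1.61, 1.28, 1.16 and 1.29.

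Among F3-type cells, the 187 with a Clec11a UMI had Vtn at 125 and 102 CPM in libraries 1 and 2, against 22.2 and 27.2 CPM in the 213 without (log2 fold 2.19, 1.76 to 2.64). Ifitm1 was at 155 and 125 CPM in cells with Clec11a and 17.6 and 42.1 CPM in cells without (2.21), and Mgp at 349 and 366 CPM in cells with it and 129 and 96.5 CPM in cells without (1.67). For all 3 the groups did not overlap in the libraries, and the share of all genes without such overlap was not counted. Gdf10 divided the cells the opposite way, with Vtn at 34.0 CPM in the 318 F3-type cells with a Gdf10 UMI and 212 CPM in the 82 without (-2.64), and Mgp at 185 and 434 CPM (-1.23). Cygb and Nrp1 differed little by Clec11a, with Cygb at 409 CPM in cells with it and 385 CPM in cells without, and Nrp1 at 244 and 225 CPM. Because a cell that lacks 1 of the genes needs more of the others to be chosen, such contrasts within F3-type cells carry the choice in them. Over all 6670 filtered cells, where no cell was chosen by the score, Mgp was at 127 CPM in the 1078 cells with a Clec11a UMI and 27.4 CPM in the 5592 without (2.21, 2.12 to 2.31), and Vtn at 38.7 and 11.6 CPM (1.74, 1.582 to 1.902). The same contrast for Gdf10 over all cells gave 0.50 for Mgp and -0.13 (-0.30 to 0.04) for Vtn, and for F3 it gave 0.60 and 0.20.

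**Figure D5:**
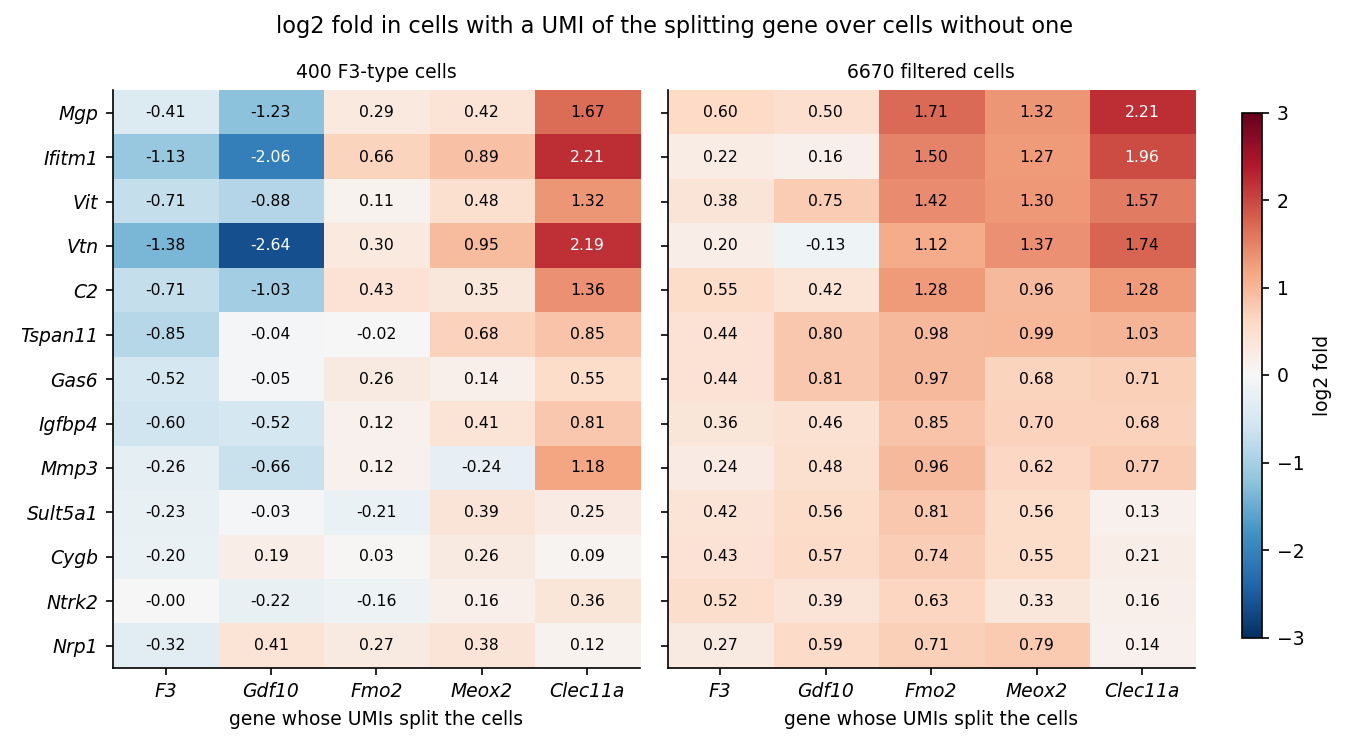
log2 fold of 13 genes higher in F3-type cells, between cells with and cells without a UMI of each selection gene, among the 400 F3-type cells (left) and all 6670 filtered cells (right). In the Clec11a columns Vtn has 2.19 and 1.74 and Mgp 1.67 and 2.21, while in the Gdf10 columns Vtn has -2.64 and -0.13.

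Markers of other lineages differed by class. The 5 epithelial markers were all at 0, Ptprc, the common leukocyte antigen, was at 0, and 8 macrophage markers together came to 19.7 CPM in F3-type and 48.5 CPM in other cells. The 8 endothelial markers summed to 39.6 CPM in F3-type, 93.1 CPM in other and 333 CPM in committed cells. Cldn5 and Gpihbp1, the lowest genes against committed cells at -2.99 and -2.88, are known from endothelium, and in the setting without cells of other lineages they had 0.25 and -0.19. Since Cldn5 is itself 1 of the markers by which that setting removed cells, its value there restates the removal, and the part of endothelial cells in the differences was not tested. Mural markers summed to 97.1 CPM in F3-type and 97.3 CPM in other cells, and tendon and cartilage markers to 74.6 and 69.8 CPM. At least 4 erythroid markers were found in 72 F3-type and 1286 other cells. Erythroid transcripts, mainly haemoglobin genes with near-identical copies, were at 878 CPM in library 1 and 16.1 CPM in library 2 of F3-type cells, against 5087 and 107 CPM in other cells. Hba-a1 had a log2 fold of -2.995 against other cells, and with 99 other cells and 1 F3-type cell left out by lineage markers or by over 5% haemoglobin UMIs it had -0.09. That setting selects on haemoglobin, so this value restates the removal too. Among cells that could be assigned by Xist and Y-linked genes, 63.0% of F3-type cells (175 of 278) and 60.3% of other cells (2605 of 4322) were Xist-positive.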

How the data were processed

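The authors deposited 1 matrix of raw UMI counts (27998 genes, 6905 barcodes, both libraries). Cell Ranger, Seurat 3.0.1 and the build mm10 are named per the submitters' processing notes, with no role stated. The aligner settings, and whether barcodes were filtered further, are not given in the sources used here. A barcode suffix names each library and not a milk condition.

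Cells with at least 500 genes, at most 10% mitochondrial UMIs and fewer than 2 UMIs of Mki67 and Top2a together were kept. Of all barcodes, 4 failed the first limit and 18 the second, with some failing both, and 215 of the rest failed the third. Counts were summed over cells and over each library. A gene was called at 1.5-fold or more the same way in both libraries and 20 CPM or more in the higher group, with 3 counts as the floor in ratios. The selection genes were left out of every call, and the 10 score genes out of those against committed cells. No count test was run, since each condition has 1 sample. Intervals are exact Poisson, conditional binomial or Clopper-Pearson, cover counting error only and treat UMIs as independent, while cells of 1 library share their source. On simulated sums with Poisson noise only, the calls recovered most 2-fold genes of 50 CPM or more. The simulation held no variation between cells and no choice of cells, so it cannot speak for 1.5-fold calls near 20 CPM.

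The F3-type cells and the 35 gene lists were chosen with earlier results of these data known. Named genes were the 12 of largest fold in each direction at 50 CPM or more, up to 4 called members of each list in each direction, the further markers, the haemostasis genes and each list's defining gene. The division by selection gene was added after values were seen. Ltbp4 and Ccl19 each stand for the row with more counts of 2. Python 3.11.15, numpy 2.4.6, scipy 1.17.1 and pandas 2.3.3 were used, with size factors of edgeR 4.0.16 and DESeq2 1.42.0 (R 4.3.3) for scaling alternatives only.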

Additional observations from a re-analysis of the deposited data

Results flagged for a closer look

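Cycling cells were left out before F3-type cells were chosen. Of these 215 cells, 16 (7.44%, exact interval 4.31 to 11.8) reached the score of the lowest F3-type cell, beside 5.997% of filtered cells by construction. They entered no comparison.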

How the results depend on the processing

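Of 27 settings, 1 (cells with 4 markers of 1 non-erythroid lineage, or over 5% haemoglobin UMIs, left out) was chosen after seeing the data. No paired analysis was possible because each condition has 1 sample and no label ties libraries to conditions. The shares of F3-type cells in libraries 1 and 2 were 3.82% and 4.17% with the top 4% of cells, 7.58% and 8.41% with the top 8%, and 3.76% and 4.26% with 3 or more selection genes required. The share at the Dpp4 end was 5.75% with Gdf10 left out of the score and 4.72% with the score on thinned counts. With other cells weighted to the score of differentiation, 56 genes were higher and 38 lower than in other cells. With the planned setting on other lineages, 78 were lower than in committed cells. A minimum of 10 CPM gave 203 higher and 141 lower against other cells and 227 higher and 207 lower against committed cells, and 50 CPM gave 68, 57, 58 and 68 in the same order. Library 1 alone gave 209 higher against other cells, and 305 higher and 202 lower against committed cells. Library 2 alone gave 220, 190, 238 and 201. These counts follow from fewer or more genes tested or from dropping the demand for both libraries; for the weighting and the lineage setting the cause was not tested. Among named genes called in the comparison concerned, 12 values turned sign, while genes not called were not counted: Gpihbp1 against other cells (0.16, Gdf10 left out), Vtn against committed cells (-0.20, Clec11a left out), Sema3d against other cells (0.11, weighted), and Hbb-bt against committed cells (0.073, committed as the lowest 10%). With other lineages left out as planned these were Hba-a2 against other cells (0.15) and Id1 (0.37), Hba-a1 (0.0019) and Cldn5 (0.14) against committed cells. In the added setting they were Hba-a2 against other cells (0.077) and Id1 (0.53), Hba-a2 (0.031) and Cldn5 (0.25) against committed cells. Another 1027 values of named genes, called or not, moved beyond their counting interval and 4611 did not. Scaling by edgeR's method moved the median of all genes against committed cells by -0.10, and no called named gene turned sign there, though uncalled folds smaller than the shift, such as that of Cxcl12 (0.04), did. Of the 133 genes higher against other cells, 27 were called in every setting other than the 50 CPM minimum, and of the 93 lower ones 2 were, Cd200 and Efhd1. Depth limits genes under about 20 CPM.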
